A study of Mus musculus with 8 samples.

Results

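The heterogeneous nuclear ribonucleoproteins (hnRNPs) are RNA-binding proteins that coat nascent transcripts in the nucleus. The family was followed here as 10 genes: Hnrnpa0, Hnrnpa1, Hnrnpa2b1, Hnrnpa3, Hnrnpab, Hnrnpc, Hnrnpd, Hnrnpf, Hnrnpm and Hnrnpu. Its members were all probe sets that the array annotation assigns to exactly 1 gene, that gene being in the family, which gave 31 of the 45037 probe sets tested and 9 of the 10 genes. Hnrnpa3 is not analysed here, because each of its 4 probe sets also lists a predicted gene. Hnrnpa1 has 3 further probe sets that list other genes as well and were not used.

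RNA was measured in purified round spermatids, the haploid germ cells that follow meiosis, on Affymetrix arrays. One group carried the BrdtΔBD1 mutation, which removes the first bromodomain of Brdt, a chromatin reader of the testis, and the other was labelled control. There were 4 mutant and 4 control arrays, each holding cells pooled from 7 adult animals, and both groups were of strain 129 Sv/Ev and 2 to 4 months old. The comparison asks which transcripts differ in round spermatids when that domain is missing. How the allele was made, and the exact genotype of the controls, are not stated in the labels used here. Brdt itself read lower on all 4 mutant arrays with 2 of its 3 probe sets (10.67 ± 0.33 in mutant and 12.08 ± 0.25 in control arrays with the brightest, SD, n = 4 each, adjusted p = 0.012 by limma), and whether these probe sets lie inside the deleted stretch was not tested.

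By way of background, hnRNPs bind short sequence elements through RNA recognition motifs or related domains and influence which splice sites are used, often in opposition to SR proteins. Several of them shuttle to the cytoplasm, where they affect the stability, transport and translation of mRNA. Germ cells of the testis make many alternatively spliced transcripts, and levels of hnRNPs are known to differ between germ cell stages.

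Array medians lay between 3.10 and 3.14 on the log2 scale, and arrays correlated with r from 0.970 to 0.994 over probe sets. Of the 20 round spermatid markers all but H1f6 read high in both groups, the lowest of them being Izumo1 (12.02 in mutant and 12.05 in control arrays), with list means of 13.1 to 13.3 on mutant arrays and 13.0 to 13.3 on control arrays. The 1 marker of the 20 that rose was H1f6, a dim one (4.58 in mutant and 3.95 in control arrays), where 1.86% of all genes rose. Prm1 (0.26) and Spaca3 (-0.27) came next without passing. Control arrays 1 and 3 stood apart in how far the 3' control probe set of Gapdh read above its 5' one, by 1.68 and 2.05, against 0.33 to 0.94 on mutant arrays and 0.46 and 0.48 on the other controls. For the members that rose and for Hnrnpa0, values are given with and without these 2 arrays. Those of the other genes, lists and markers are given with all arrays only. Arrays with the same replicate number deviated together from their group means (r from 0.39 to 0.65 for the 4 numbers), so values with the number as a block are given beside member, list and named-gene calls that they change.

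Of the 9 measured hnRNP genes, 2 rose in mutant round spermatids and 0 fell (limma, adjusted p under 0.05 over 18193 genes, where 1.86% of all genes rose and 3.71% changed in either direction). In RNA from pooled cells, fewer cells of a type and less RNA per cell cannot be told apart. The 2 genes were Hnrnpm, a splicing regulator, and Hnrnpa2b1, an A/B-type hnRNP active in splicing and mRNA transport. In 3 of the 9, those 2 and Hnrnpa0, all mutant arrays lay above all control arrays, as in 6.15% of all genes. Each gene stood on the probe set with the highest mean over mutant and control arrays together. For Hnrnpa2b1 this choice depended on the mutant arrays. On control arrays its probe set 1433830_at averaged 9.4745, slightly above the 9.4708 of 1420365_a_at, which stood for the gene. With 1433830_at the groups overlapped, and its difference of 0.36 did not pass (adjusted p = 0.33 over probe sets, limma). The median log2 difference of the 9 genes was 0.29, against -0.02 over all genes. Of the 9 differences 7 were above 0, as were 8427 over all 18193 genes. With the replicate block 3 of the 9 rose, where 6.60% of all genes did, Hnrnpa0 being added. In a fit of only the 8998 genes with a mean of at least 4, which include all 9, 416 rose. The same 3 members were among them.

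Hnrnpm, read by 1 probe set, had log2 intensities of 7.42, 7.28, 6.94 and 6.995 on mutant arrays 1 to 4, against 6.35, 6.16, 5.88 and 6.21 on control arrays 1 to 4. Every mutant array lay above every control array, and the arrays within a group differed little. The mean was 7.16 ± 0.23 in mutant and 6.15 ± 0.20 in control arrays (SD, n = 4 each), a 2.01-fold higher level in the mutant (adjusted p = 0.0126 over genes and 0.0177 over probe sets, limma). In pairs of the same replicate number the mutant was higher by 1.06, 1.12, 1.06 and 0.78. With any 1 array left out Hnrnpm still passed over genes (8 of 8 fits, adjusted p up to 0.043). Over probe sets it missed the threshold without control array 2 (0.050) and without control array 4 (0.058). Without control arrays 1 and 3 the difference was 0.97 (SE 0.18) and the adjusted p was 0.10.

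Hnrnpa2b1 read 11.34, 11.75, 10.48 and 10.25 on mutant arrays 1 to 4 with the probe set 1420365_a_at, against 9.23, 9.64, 9.57 and 9.44 on control arrays. The groups did not overlap, and mutant arrays 1 and 2 lay clearly above mutant arrays 3 and 4. The means were 10.96 ± 0.71 and 9.47 ± 0.18 (mutant and control, SD, n = 4 each), a 2.80-fold higher level in the mutant (adjusted p = 0.039 over genes, limma). Over all probe sets the same values had an adjusted p of 0.060, and 0.027 with the replicate block. The gene passed in 2 of the 8 fits that leave out 1 array, those without mutant array 2 and without mutant array 4, and missed the threshold in the others with an adjusted p of up to 0.11. Without control arrays 1 and 3 its difference was 1.42 (SE 0.43, adjusted p = 0.24).

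Hnrnpa0, known to bind AU-rich elements of mRNA, had the largest difference of the 9 genes and did not pass. It read 8.77, 9.96, 7.83 and 7.70 on mutant arrays 1 to 4, against 6.81, 6.90, 4.96 and 6.46 on control arrays. The groups did not overlap, but they were wide: mutant array 2 was more than 1 log2 unit above the other mutant arrays, and control array 3 was well below the other controls. The log2 difference was 2.28 with a 95% interval of the moderated model from 0.97 to 3.59 over probe sets, and the adjusted p over genes was 0.065. With the replicate block it passed (adjusted p = 0.011 over genes, limma), the pairs differing by 1.96, 3.05, 2.87 and 1.24. Its low control array 3 is one of those that stood apart in the Gapdh control probe sets. Without control arrays 1 and 3 the difference was 1.88 (SE 0.63, adjusted p = 0.27 over genes).

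Over probe sets, 2 of the 31 members rose and 0 fell, where 0.717% of all probe sets rose and 1.42% changed in either direction, and the members were Hnrnpm and a probe set of Hnrnpf. With the replicate block 7 of the 31 rose, where 3.92% of all probe sets did. In 5 of the 31, from 4 genes, all 4 mutant arrays lay above all 4 control arrays, as in 4.73% of all probe sets. Probe sets of 1 gene share their RNA and array and are not replicates of each other. A filter on a mean of at least 4 kept 22 of the 31, with the same 5 apart (8.77% of all probe sets past that filter), and the other 9 were dim. Of the 22, 2 rose in the fit of all probe sets, where 1.87% of all probe sets past that filter did.

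**Figure D1:**
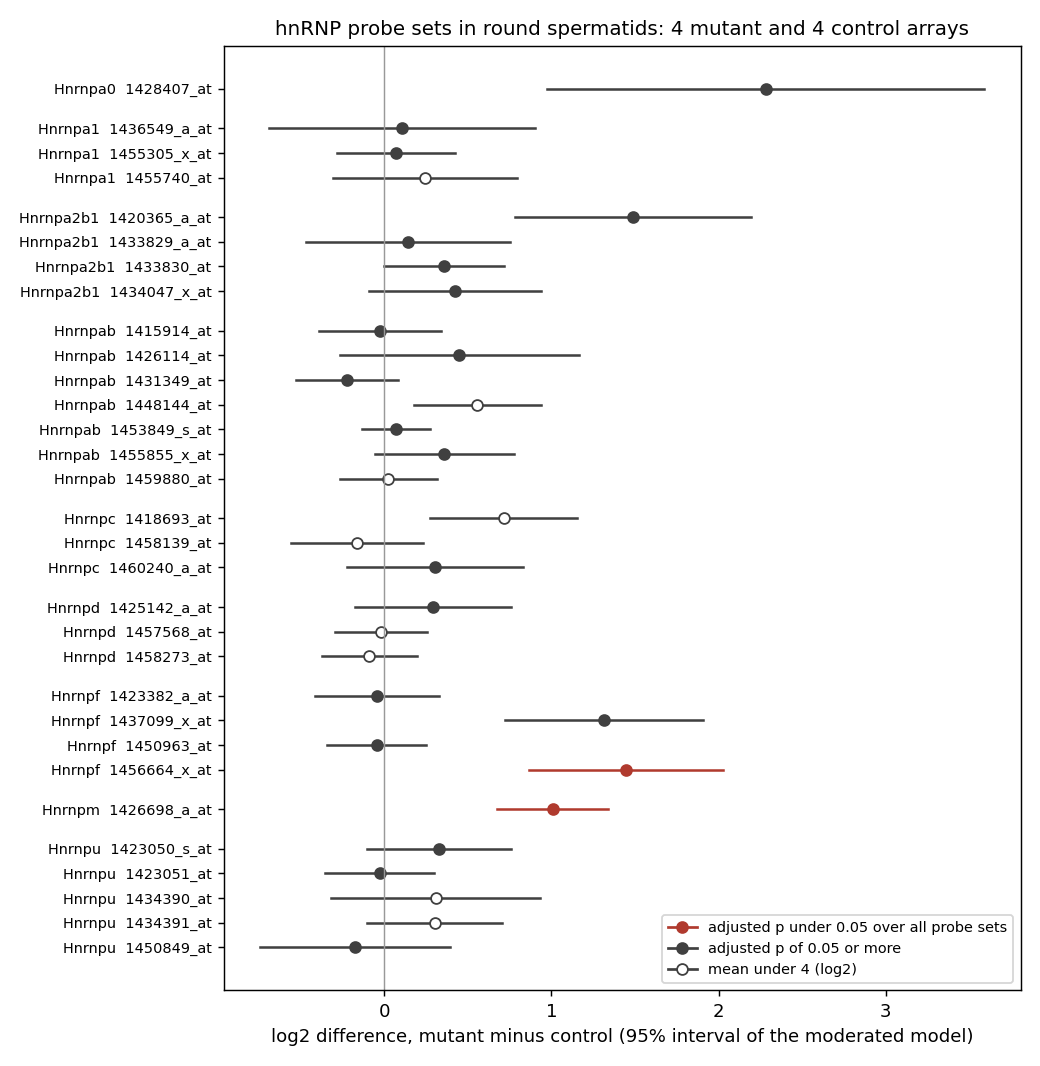
Log2 difference, mutant minus control, of the 31 hnRNP probe sets (points) with the 95% interval of the moderated model (lines), ordered by gene. Filled red points mark an adjusted p under 0.05 over all probe sets, which Hnrnpm and Hnrnpf 1456664_x_at reached, and open points mark a mean under 4.

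**Figure D2:**
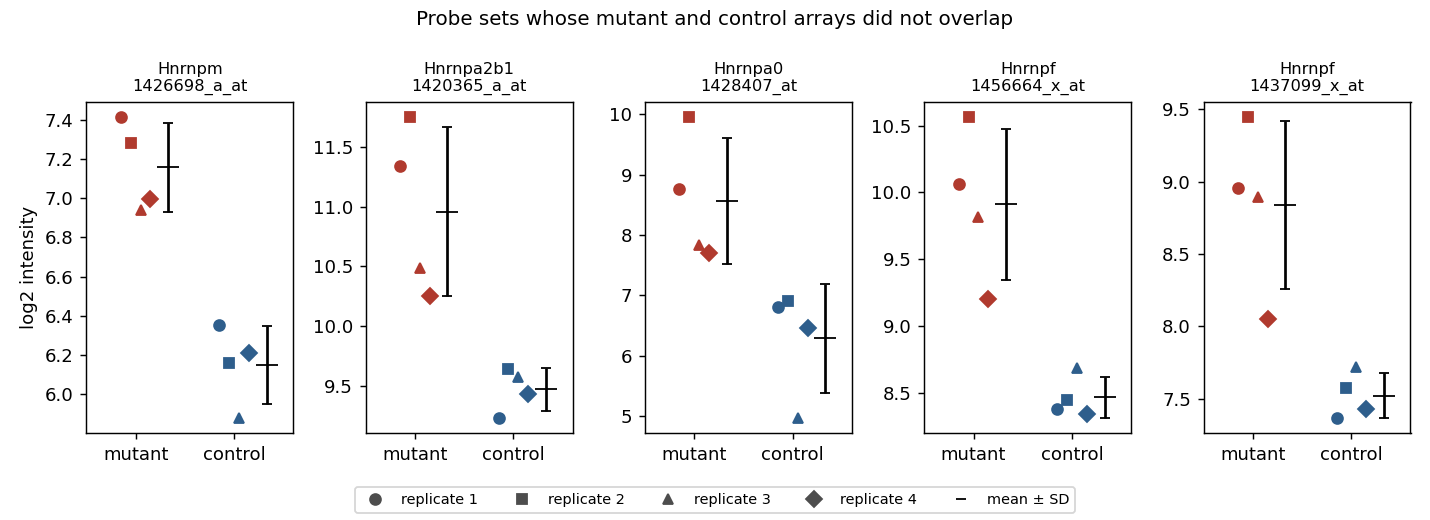
Log2 intensity of the 5 hnRNP probe sets whose groups did not overlap, in mutant (left, red) and control (right, blue) arrays, with a symbol for each replicate number and the mean ± SD of 4 arrays. Mutant array 2 is the highest of the 8 arrays in 4 of the panels, and mutant array 1 is the highest for Hnrnpm.

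The promoters of Hnrnpm, Hnrnpa2b1 and Hnrnpa0 are shown because these are the 3 genes whose representative probe set separated all mutant from all control arrays. They come from RefSeq on GRCm38.p6 and lie on the minus strand: Hnrnpm at chr17:33685409-33685708, Hnrnpa2b1 at chr6:51469845-51470144 (the first of its 2 listed starts) and Hnrnpa0 at chr13:58128507-58128806. Each run of 300 bases is printed 5′ to 3′ and ends just after the transcription start. Capitals mark matches, on either strand, to any of 6 motifs: the CCAAT box (CCAAT), the GC box (GGGCGG), the ETS core (CCGGAA), the core of the cAMP response element (TGACG), the YY1 site (GCCATNTT) and the TATA box (TATAAA).
Hnrnpm: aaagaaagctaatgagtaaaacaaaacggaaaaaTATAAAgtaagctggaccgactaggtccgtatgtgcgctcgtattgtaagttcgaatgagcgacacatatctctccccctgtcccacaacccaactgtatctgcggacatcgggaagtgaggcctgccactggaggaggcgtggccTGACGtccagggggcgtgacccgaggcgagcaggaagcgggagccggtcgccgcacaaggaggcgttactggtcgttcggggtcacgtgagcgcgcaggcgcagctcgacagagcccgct
Hnrnpa2b1: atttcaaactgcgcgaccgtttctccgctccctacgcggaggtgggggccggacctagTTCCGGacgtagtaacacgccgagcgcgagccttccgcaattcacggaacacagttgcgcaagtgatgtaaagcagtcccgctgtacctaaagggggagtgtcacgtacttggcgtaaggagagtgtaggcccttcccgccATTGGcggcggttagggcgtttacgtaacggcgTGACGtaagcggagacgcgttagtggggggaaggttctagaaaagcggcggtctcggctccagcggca
Hnrnpa0: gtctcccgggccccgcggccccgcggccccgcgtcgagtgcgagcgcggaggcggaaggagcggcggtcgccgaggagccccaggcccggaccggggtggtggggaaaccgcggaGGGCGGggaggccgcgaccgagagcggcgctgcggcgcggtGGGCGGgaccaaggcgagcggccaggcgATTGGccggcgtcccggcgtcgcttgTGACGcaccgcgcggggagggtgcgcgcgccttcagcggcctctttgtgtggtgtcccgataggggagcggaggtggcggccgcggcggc
All 3 hold TGACG, the core bound by CREM, a transcription factor of round spermatids, as do 20.8% of the 32851 promoters of that length and 7 of the 14 promoter entries of the 10 family genes. Hnrnpa2b1 and Hnrnpa0 hold a CCAAT box, found in 37.4% of all promoters and 9 of the 14 family entries. Hnrnpa0 has 2 GC boxes (35.7% and 9 of 14), Hnrnpa2b1 has an ETS core (14.9% and 8 of 14), and Hnrnpm has TATAAA (13.6% and 2 of 14). Of the 14 entries 4 belong to Hnrnpf. The YY1 letters, found in 6.05% of all promoters and 2 of the 14 family entries, are in none of these windows. The GC content was 58%, 60% and 79.7% in Hnrnpm, Hnrnpa2b1 and Hnrnpa0. The matches describe the letters of these windows and were not tested for use in spermatids.

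Hnrnpf, a protein that binds runs of G in RNA, gave different answers with different probe sets. With 1456664_x_at it read 10.06, 10.57, 9.81 and 9.20 on mutant arrays 1 to 4, against 8.38, 8.45, 8.69 and 8.34 on control arrays. With 1437099_x_at it read 8.96, 9.45, 8.89 and 8.05 on mutant arrays, against 7.37, 7.57, 7.72 and 7.43 on control arrays. In both, every mutant array was above every control array, with mutant array 4 nearest to the controls. The first was 2.73-fold higher in the mutant (log2 difference 1.45, SE 0.26, adjusted p = 0.035 over probe sets, limma). With 1 array left out it passed in 2 of 8 fits, those without mutant array 2 and without mutant array 4, with an adjusted p of up to 0.11 in the others, and without control arrays 1 and 3 it was 0.21. The second was 2.49-fold higher and missed the threshold (adjusted p = 0.051), passing with the replicate block (0.020).

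The other Hnrnpf probe sets showed no such difference. With 1423382_a_at, which stood for the gene, the values were 13.14, 13.15, 12.77 and 12.81 on mutant arrays 1 to 4, against 13.22, 13.28, 12.71 and 12.84 on control arrays. With 1450963_at the means were 12.70 ± 0.17 and 12.75 ± 0.19 (mutant and control, SD, n = 4 each). Groups overlapped in both, and the 95% intervals of the differences ran from -0.41 to 0.33 and from -0.34 to 0.25, below the differences of the pair above. The test between probe sets of 1 gene (diffSplice, F test per gene) called Hnrnpf (F = 11.8, adjusted p = 0.0108), where 0.906% of the 2870 genes tested were called. It was called in 3 of the 8 fits that leave out 1 array, those without mutant array 2, mutant array 4 and control array 3, with an adjusted p of up to 0.12 in the others. The adjusted p was 0.23 without control arrays 1 and 3 and 0.0050 with the replicate block.

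The suffix _x_at is Affymetrix's mark for probe sets with probes that may also match other transcripts, and both of the higher Hnrnpf probe sets carry it. Which part of the gene, or which other transcript, each probe set reads was not tested, since probe sequences and positions were not used here. For Hnrnpa2b1 too the differences were unequal. Its other 3 probe sets had log2 differences of 0.14 (1433829_a_at), 0.36 (1433830_at) and 0.42 (1434047_x_at), with overlapping groups and adjusted p of 0.87, 0.33 and 0.44 over probe sets (limma). The test between its 4 probe sets (diffSplice) did not pass (adjusted p = 0.24) and passed with the replicate block (0.048). The share of all genes that passed this test with the block was not counted. With the mean of its 4 probe sets Hnrnpa2b1 had a difference of 0.60 (SE 0.19) and did not pass over genes (adjusted p = 0.13).

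**Figure D3:**
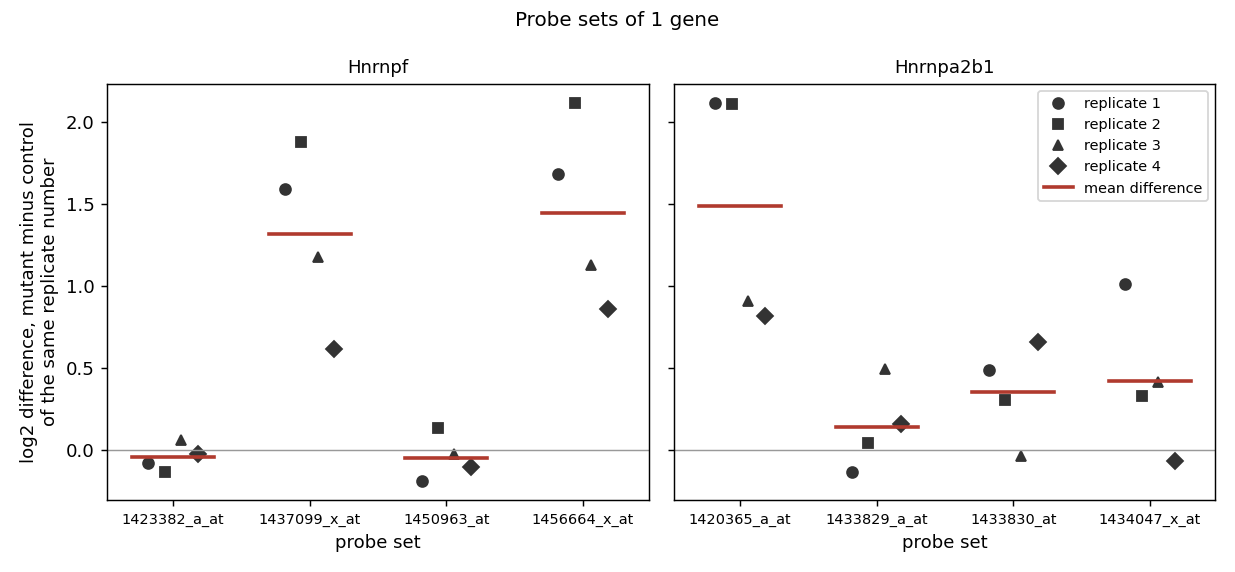
Log2 difference between the mutant and the control array of the same replicate number (symbols) and their mean (red bar), for the 4 probe sets of Hnrnpf (left) and the 4 of Hnrnpa2b1 (right). In Hnrnpf the 2 probe sets ending in _x_at lie above 0 in all 4 pairs while the other 2 scatter around 0, and in Hnrnpa2b1 the probe set 1420365_a_at has the highest difference of the 4 at each replicate number.

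The remaining 5 genes did not pass at any probe set in the fit of all arrays without the block. Hnrnpa1, an A/B-type repressor of splice sites, stood on 1455305_x_at, which also carries the mark for probes that may match other transcripts. Its means were 9.17 ± 0.24 in mutant and 9.10 ± 0.22 in control arrays (SD, n = 4 each), a difference of 0.07 with a 95% interval from -0.28 to 0.42. Its probe set 1436549_a_at moved with the replicate number in both groups, reading 8.75, 7.31, 8.35 and 8.50 on mutant arrays 1 to 4, against 8.70, 7.47, 8.37 and 7.95 on control arrays. Array 2 was the lowest of each group there. The test between Hnrnpa1 probe sets did not pass (adjusted p = 0.9999).

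Hnrnpab, a CArG-box binding protein, had the narrowest spread of the 9 genes. Its representative probe set read 12.48, 12.27, 12.32 and 12.37 on mutant arrays 1 to 4, against 12.39, 12.27, 12.25 and 12.26 on control arrays. The groups overlapped, and the interval of the difference ran from -0.13 to 0.27, which leaves out changes of the size seen for Hnrnpm. The differences of its other 6 probe sets ran from -0.22 to 0.56. The highest, of 1448144_at, lay among dim values (3.09 ± 0.24 in mutant and 2.53 ± 0.26 in control arrays, SD, n = 4 each) and passed with the replicate block (adjusted p = 0.033) but not without it (0.15).

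Hnrnpc, which binds runs of U and takes part in packaging of nascent RNA, read 11.57, 11.23, 11.04 and 10.79 on mutant arrays 1 to 4, against 11.43, 10.84, 10.64 and 10.50 on control arrays. The mutant array was the higher one in every pair of the same number, by 0.14 to 0.40, while the groups overlapped. The difference of 0.30 (SE 0.23) did not pass (adjusted p = 0.53 over genes, and 0.12 with the replicate block). Its dim probe set 1418693_at had a difference of 0.71 (SE 0.19) and did not pass (adjusted p = 0.12), though it did with the replicate block (0.047) and without mutant array 4 (0.026).

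Hnrnpd, the AU-rich element binding protein AUF1, read 10.67, 10.25, 10.45 and 10.09 on mutant arrays 1 to 4, against 10.58, 9.86, 10.17 and 9.70 on control arrays. The pattern was like that of Hnrnpc, with the mutant higher in every pair by 0.09 to 0.40 and groups that overlapped (difference 0.29, SE 0.21, adjusted p = 0.50 over genes and 0.14 with the block). Its other 2 probe sets were dim, with means under 4.

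Hnrnpu, the scaffold attachment factor that binds chromatin and RNA, read 13.12, 13.19, 12.92 and 12.97 on mutant arrays 1 to 4, against 13.42, 13.14, 12.86 and 12.89 on control arrays. The groups overlapped and the difference was -0.03, with a 95% interval from -0.35 to 0.30. The differences of its other 4 probe sets ran from -0.17 to 0.33, with adjusted p of at least 0.48. Its test between probe sets did not pass, nor did that of Hnrnpab.

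Beyond these members, 35 further genes of hnRNPs and related RNA-binding proteins were listed, and 33 were measured. None passed over genes by limma. At an unadjusted p under 0.05 there were 10 higher and 1 lower of the 33, where 2002 were higher and 1667 lower of all 18193 genes. With the replicate block 10 of the 33 rose, where 6.60% of all genes did. Of the 33, 27 had a difference above 0, where 8427 of all 18193 genes did, and the list median was 0.25. The smallest unadjusted p belonged to Hnrnpr (difference 0.71, SE 0.17, adjusted p = 0.053), Rbmxl1 (0.90, SE 0.22, adjusted p = 0.057) and the poly(C)-binding protein gene Pcbp1 (1.52, SE 0.37, adjusted p = 0.058). With the block these 3 passed, with adjusted p of 0.012, 0.0095 and 0.021. Pcbp1 read 10.77, 11.68, 10.27 and 9.99 on mutant arrays 1 to 4, against 9.08, 9.501, 8.54 and 9.496 on control arrays. Mutant array 2 was again the highest.

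Among 21 measured partners and modifiers of hnRNPs, 1 rose and 0 fell, where 1.86% of all genes rose. With the block 4 rose, where 6.60% of all genes did. The 1 that rose without the block was Pspc1, a paraspeckle protein. It read 9.32, 9.65, 9.15 and 8.87 on mutant arrays 1 to 4, against 8.14, 8.33, 8.18 and 8.26 on control arrays. The groups did not overlap, and Pspc1 was 2.03-fold higher in the mutant (9.25 ± 0.33 in mutant and 8.23 ± 0.08 in control arrays, SD, n = 4 each; adjusted p = 0.017, limma). The helicase genes Dhx9 and Ddx17 followed with differences of 1.25 (adjusted p = 0.061) and 0.83 (adjusted p = 0.11), and both passed with the block (0.0075 and 0.011).

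By the root mean square difference between mean-centred profiles over the 8 arrays, among 6907 named genes with a mean of at least 5, the genes most like Hnrnpm were Eif4a2 (0.109), Tug1 (0.116) and Rnf113a2 (0.124). Those most like Hnrnpa2b1 were Fbxo9 (0.168), Sft2d1 (0.196) and Mis18a (0.197). Fbxo9 read 8.68, 9.31, 8.39 and 7.90 on mutant arrays 1 to 4, against 6.94, 7.40, 7.02 and 7.04 on control arrays. Its likeness to Hnrnpa2b1, including mutant array 2 as the highest, follows from how it was picked on these same arrays.

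Some markers of other testis cells moved with the groups, those of Sertoli cells most widely. Of 22 measured Sertoli cell markers 6 rose and 0 fell, 13 rose with the replicate block, and 21 of the 22 differences were above 0. Of all genes 1.86% rose without the block and 6.60% with it, and 8427 of the 18193 differences were above 0. Together the markers averaged 6.89, 5.81, 7.17 and 6.80 on mutant arrays 1 to 4, against 4.95, 5.05, 5.66 and 5.51 on control arrays. The smallest p belonged to Vim (log2 difference 2.95), Cldn11 (1.72) and Fabp5 (4.01). The defining genes were not alike. Amh (1.95 in mutant and 1.97 in control arrays) and Fshr (2.51 and 2.41) lay below the array median, and Sox9 read 3.80 in both. Wt1 (5.10 in mutant and 3.95 in control arrays), Amhr2 (10.06 and 8.41), Inha (5.85 and 4.31) and Clu (12.16 and 10.49) passed with the block (adjusted p of 0.043, 0.011, 0.036 and 0.0097) and not without it. Rhox5 had a difference of 1.46 and passed in neither fit. Mutant array 2 had the lowest Sertoli mean of the mutants. Hnrnpa2b1, Hnrnpa0 and Hnrnpf 1456664_x_at were highest on that 1 array, while Hnrnpm was highest on mutant array 1 (7.42, with a Sertoli mean of 6.89). With the Sertoli mean as a covariate the differences were larger and their errors wider: 1.33 (SE 0.27, adjusted p = 0.068) for Hnrnpm, 2.32 (SE 0.53, adjusted p = 0.091) for Hnrnpa2b1 and 4.62 (SE 0.62, adjusted p = 0.048) for Hnrnpa0 over genes. These values are extrapolated, since no mutant array had a Sertoli mean as low as a control array.

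Of 18 spermatocyte markers 0 rose and 0 fell over genes (5 higher, 1 lower by unadjusted p under 0.05), and 3 rose and 1 fell with the block (limma, where 1.86% of all genes rose without the block and 6.60% with it). Their mean was 9.21, 9.05, 8.52 and 8.26 on mutant arrays 1 to 4, against 8.69, 8.44, 8.32 and 8.24 on control arrays. The smallest p belonged to Rec8 (log2 difference -0.67), Sycp3 (0.99) and Hormad1 (1.09), none past the adjusted threshold without the block and all 3 past it with the block (0.025, 0.011 and 0.016). On the list mean the groups overlapped, and mutant arrays 1 and 2 were the highest, as for Hnrnpm, Hnrnpa2b1, Hnrnpa0 and Hnrnpf 1456664_x_at. With this mean as a covariate the difference of Hnrnpm was 0.84 (SE 0.14, adjusted p = 0.028 over genes), that of Hnrnpa2b1 was 1.11 (SE 0.26, adjusted p = 0.082) and that of Hnrnpa0 was 1.64 (SE 0.52, adjusted p = 0.17). Hnrnpf 1456664_x_at had 1.16 (SE 0.23, adjusted p = 0.076 over probe sets). Of 15 spermatogonia markers 1 rose (Etv5, by 1.28) and 5 rose with the block, Dazl (difference 1.57, adjusted p = 0.080, and 0.020 with the block) and Uchl1 (1.57, 0.097 and 0.027) among them, and their mean was 5.21 to 5.80 on mutant and 4.60 to 4.89 on control arrays. Of 8 Leydig cell markers 2 rose, Aldh1a1 by 2.50 and Gsta2 by 2.65 (list means of 4.75 to 5.08 and 3.84 to 4.31, mutant and control). The others did not pass: Star (0.35), Cyp17a1 (1.05), Hsd17b3 (0.21), Hsd3b1 (0.18), Fdx1 (0.05) and Cyp11a1 (-0.33). All of these but Fdx1 had means under 4 in both groups. Of 18 peritubular, vascular and blood cell markers 1 rose, Lum by 1.07 (list means of 3.23 to 3.74 and 3.07 to 3.20). Next by p came Dcn, which was higher (1.95), and Hba-a1, which was lower (-0.16), neither past the threshold. Dcn read 7.67 on mutant array 1 and 2.89 to 4.50 on the other mutants. Mutant array 1 also had the highest mean of that list. Of the lists of other testis cells, only the spermatocyte list had means that overlapped between groups. For the other lists, Sertoli cells included, cell content and the mutation cannot be told apart here. The part of these other cells in the hnRNP differences was not tested.

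**Figure D4:**
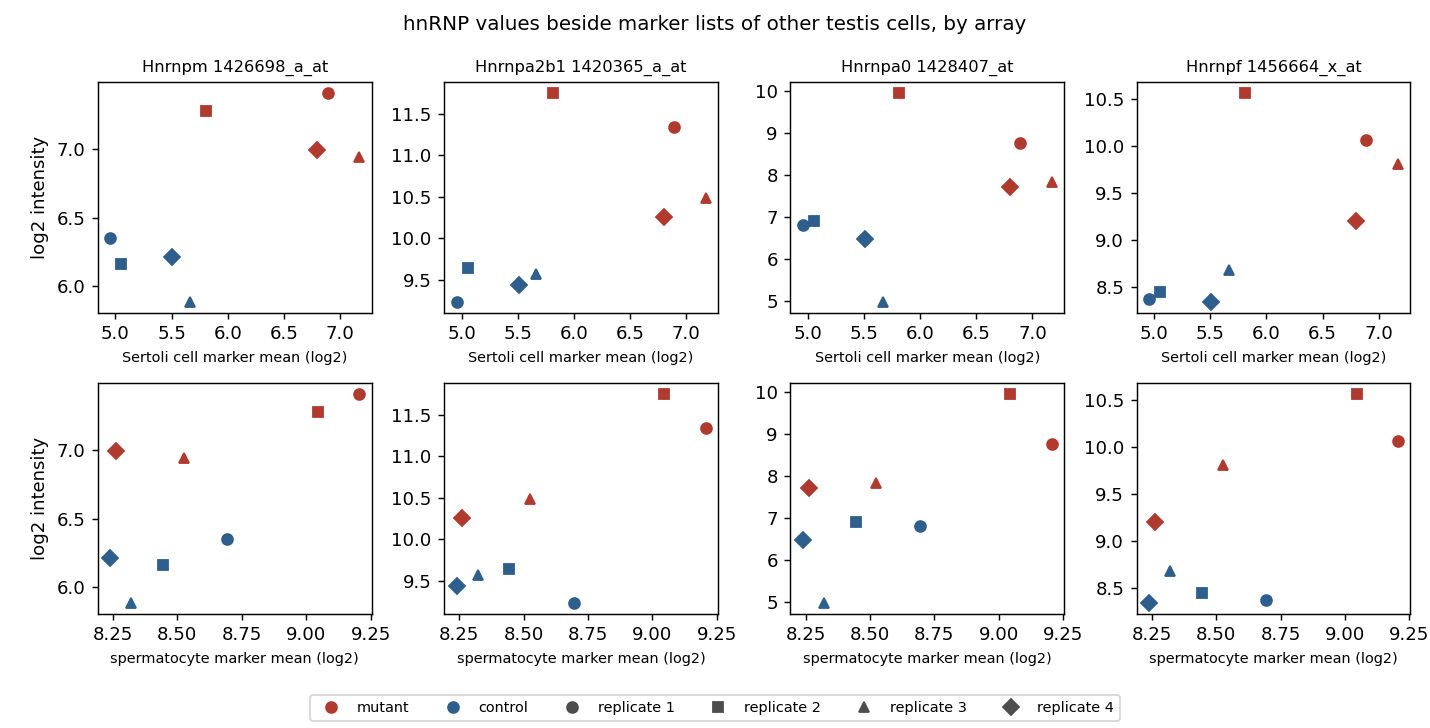
Log2 intensity of 4 hnRNP probe sets (vertical axes) against the mean of the Sertoli cell markers (top row) and of the spermatocyte markers (bottom row), for 4 mutant (red) and 4 control (blue) arrays. Groups are apart on the Sertoli axis (5.81 to 7.17 against 4.95 to 5.66) and overlap on the spermatocyte axis, where mutant arrays 1 and 2 lie highest.

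**Figure D5:**
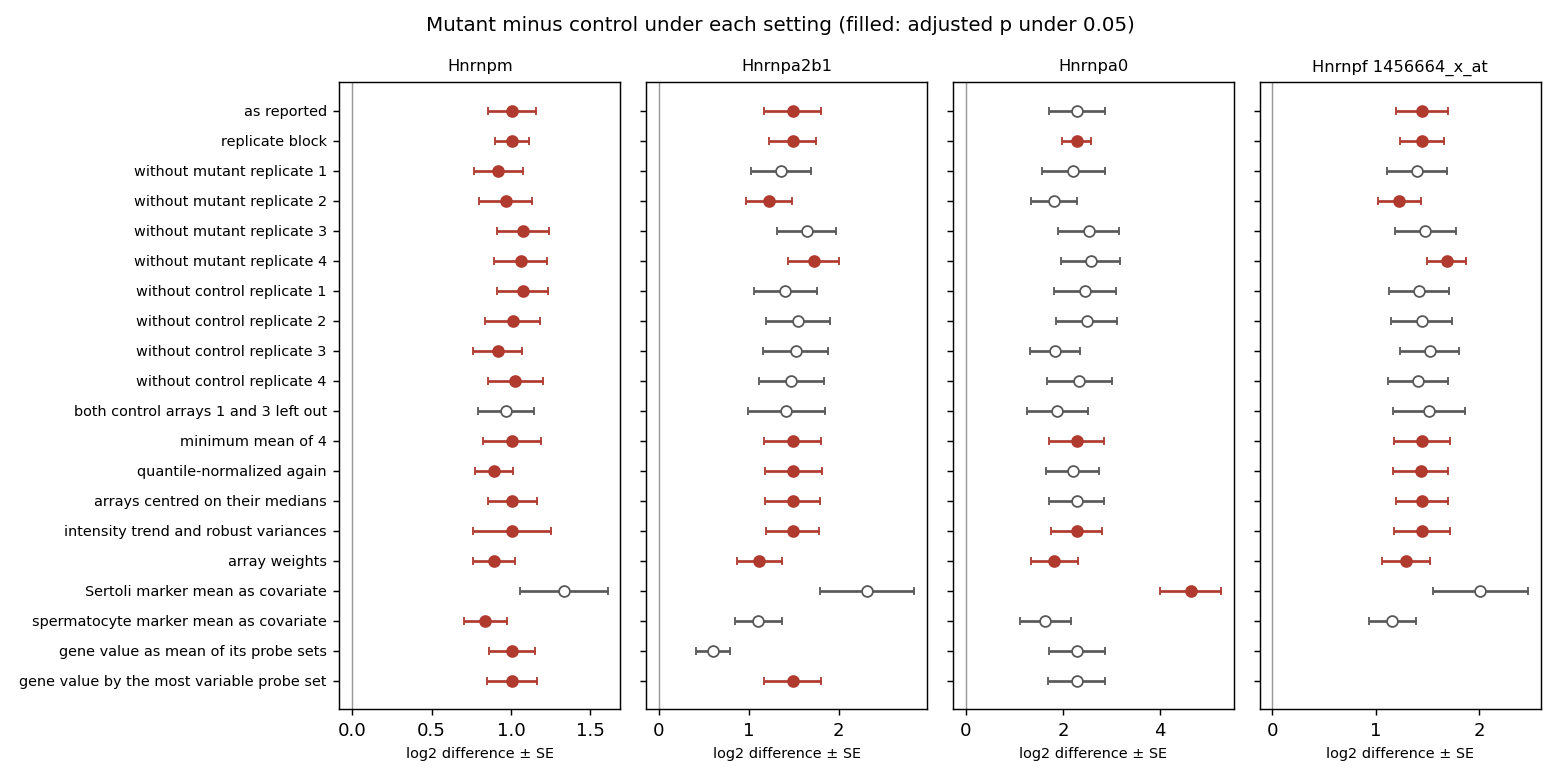
Log2 difference, mutant minus control, with its SE for Hnrnpm, Hnrnpa2b1, Hnrnpa0 (over genes) and Hnrnpf 1456664_x_at (over probe sets) under each setting, where filled points have an adjusted p under 0.05. Every difference shown is above 0, and Hnrnpm misses the threshold without control arrays 1 and 3 and with the Sertoli covariate.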

How the data were processed

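Total RNA of round spermatids was hybridised to 8 Affymetrix arrays. The authors deposited 1 log2 intensity for each probe set and array. Per the submitters' processing notes GCRMA and limma were used, with no versions or roles stated; the scanner files were not used here. GCRMA pulls dim probe sets together, so their differences come out smaller. The number of arrays limits the precision.

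After removal of 64 Affymetrix control probe sets from 45101, 45037 were fitted with limma 3.58.1 in R 4.3.3 (group as the only term, moderated variances, two-sided, Benjamini-Hochberg adjustment, threshold 0.05), over probe sets and over 18193 genes, each standing on its brightest single-gene probe set. Genes came from the platform annotation, in which 34945 probe sets list 1 gene, 932 several and 9160 none; 34741 of those with 1 gene were given current symbols by Entrez identifier. The brightest probe set of a gene was chosen by its mean over mutant and control arrays together. diffSplice compared probe sets of a gene (mean at least 4). The gene-level fit and diffSplice were also run on simulated data with independent arrays. Such data lack the deviations that same-numbered arrays share, so that run says nothing about the calls given here.

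Groups and replicate numbers are those of the sample titles. Nothing in the titles says what a number stands for, and the pairing comes from the deviations that same-numbered arrays share (r of 0.39, 0.49, 0.65 and 0.55 over probe sets whose mean reached 4). The members, the gene lists and the tests were chosen with earlier results of these data known. All members are named. Other hnRNP genes and partners are named when past the threshold over genes, or the 3 with the smallest unadjusted p where fewer than 3 passed, and likewise the 3 genes with the most similar profile for each member that passed. Of each marker list the 3 genes with the smallest p are named. Brdt, Fbxo9's values, Amh, Fshr, Sox9, Wt1, Amhr2, Inha, Clu, Rhox5 and Izumo1 were added after their values were seen. So were the Leydig cell markers Cyp17a1, Hsd17b3, Hsd3b1, Fdx1 and Cyp11a1. Alternatives were the replicate block, leaving out each array, leaving out control arrays 1 and 3, a minimum mean of 4 (5 for diffSplice), quantile normalization, median centring, trended robust variances, array weights, a Sertoli covariate, 2 other choices of a gene's value and, added after seeing the data, a spermatocyte covariate.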

Additional observations from a re-analysis of the deposited data

Results flagged for a closer look

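In 6 of the 62 groups of 4 arrays (31 probe sets in 2 groups) 1 array stood apart from the other 3 by Dixon's gap test, where chance gives about 1 in 20. On mutant array 2 Hnrnpab 1415914_at read 9.97, below the other mutants. On control array 1, the array with the highest 18S ribosomal RNA control probe sets, Hnrnpab 1453849_s_at read 12.39, Hnrnpc 1418693_at read 3.26 and Hnrnpu 1434390_at read 4.14, each above the other controls. On mutant array 1 the dim probe sets Hnrnpc 1458139_at and Hnrnpd 1457568_at read 2.45 and 2.50, below the other mutants. None of the 5 probe sets whose groups did not overlap was among them.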

How the results depend on the processing

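Hnrnpm, Hnrnpa2b1, Hnrnpa0 and Hnrnpf 1456664_x_at were higher in the mutant under every alternative run, with log2 differences of 0.84 to 1.33, 0.60 to 2.32, 1.64 to 4.62 and 1.16 to 2.01. Over genes Hnrnpm passed in 17 of 19 alternatives (adjusted p 0.0055 to 0.10), Hnrnpa2b1 in 9 (0.017 to 0.24) and Hnrnpa0 in 5 (0.011 to 0.27), and over probe sets Hnrnpf 1456664_x_at in 8 of 17 (0.015 to 0.21, limma). The number of probe sets past the threshold was 2 as reported, 7 with the replicate block, 5 with a minimum mean of 4, 1 with the spermatocyte covariate, 0 with the Sertoli covariate, 0 without control arrays 1 and 3, and 0 to 5 when 1 array was left out (0 without control array 2 and without control array 4, 5 without mutant array 4). The number of genes was 2 as reported, 3 with the replicate block, 1 with either covariate or with the mean of a gene's probe sets, 0 without control arrays 1 and 3, and 1 to 2 when 1 array was left out. Genes whose probe sets differed numbered 1 as reported, 2 with the replicate block, 0 with the Sertoli covariate, 0 without control arrays 1 and 3, and 0 to 1 when 1 array was left out. The share of all genes called by that test was counted as reported only (0.906% of 2870). The counts under the other settings therefore have no share to be judged by. Without control arrays 1 and 3 the fits have fewer samples, and 18 of all genes and 5 of all 45037 probe sets rose. Of all probe sets 1767 rose with the replicate block, 533 of 14359 with a minimum mean of 4, 165 with the spermatocyte covariate and 1 with the Sertoli covariate. Of all 18193 genes 1201, 148 and 47 rose with the block, the spermatocyte and the Sertoli covariate, and 292 with the mean of a gene's probe sets. With 1 array left out 74 to 936 probe sets and 70 to 755 genes rose. Beyond the calls given here and in the results, the block changed no call of a member. The cause of the other changes was not tested.

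Sign changes were seen only in differences that had not passed. Without control arrays 1 and 3 they were 0.11 (Hnrnpab 1415914_at), 0.036 (Hnrnpd 1457568_at) and 0.035 (Hnrnpu). Hnrnpd 1457568_at was 0.0069 after quantile normalization. With array weights they were 0.061 (Hnrnpab 1415914_at), -0.0083 (Hnrnpab 1459880_at) and 0.048 (Hnrnpd 1457568_at). With the Sertoli covariate they were -0.022 (Hnrnpa1), -0.87 (1436549_a_at) and -0.037 (1455740_at) of Hnrnpa1, 0.043 (Hnrnpab 1431349_at), 0.15 and 0.034 (Hnrnpd 1457568_at and 1458273_at), 0.46 (Hnrnpf), 0.36 (1450963_at), 0.40 (Hnrnpu) and 0.17 (1450849_at). With the spermatocyte covariate they were -0.20 (Hnrnpa2b1 1433829_a_at), 0.0017 (Hnrnpab 1415914_at), -0.12 (Hnrnpab 1459880_at), -0.011 (Hnrnpc), 0.022 (Hnrnpd 1457568_at) and -0.070 (Hnrnpu 1434390_at). As the mean of all probe sets Hnrnpf had 0.67 and Hnrnpu 0.15, and by the most variable probe set 1.45 (adjusted p = 0.028 over genes) and 0.31. Leaving out 1 array gave ranges across 0 for Hnrnpa1 (-0.0042 to 0.17) and 1436549_a_at (-0.11 to 0.41), Hnrnpab 1415914_at (-0.089 to 0.11) and 1459880_at (-0.050 to 0.13), Hnrnpd 1457568_at (-0.052 to 0.068) and 1458273_at (-0.16 to 0.0065), Hnrnpf (-0.14 to 0.048) and 1450963_at (-0.12 to 0.031), and Hnrnpu (-0.10 to 0.088) and 1450849_at (-0.38 to 0.029).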
